A study of Homo sapiens with 8 samples.

Results

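The genes described here encode the machinery that moves proteins into the endoplasmic reticulum (ER), folds them there and carries them to the Golgi apparatus and back. They were taken by gene symbol: SEC followed by a digit, the coat subunits COPA, COPB1, COPB2, COPE, COPG and COPZ1, the chaperones CALR and CANX, and any symbol of the SSR, SRP, TMED, KDELR, PDIA, SPCS or ARFGAP series. This gave 39 genes of the 8926 genes named on the array, and each is represented by the brightest of its named probe sets (66 probe sets in all). The rule itself uses no measured value other than brightness, but it was set with earlier results of these data known. COPG, COPZ1, SEC61A1, SEC13 and further genes of the same machinery are not analysed here. SEC14L1 and SEC14L2 were matched by their letters alone, since they belong to a family named after a yeast lipid transfer protein and are not coat or translocon subunits.

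RNA was measured in HMLE cells, human mammary epithelial cells immortalized in culture, on 8 single-colour Affymetrix arrays. One group, CD24hi, held cells sorted for the surface protein CD24. The other 3 groups, MSP1, MSP2 and MSP3, are each labelled as a mesenchymal subpopulation of this cell line. All were grown in the same medium, no group received a labelled treatment, and each group had 2 arrays, lettered a and b. The labels do not state whether a and b stem from separate cultures or how each MSP group was derived, so a p-value here measures array-to-array spread, possibly technical.

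A secretory protein is recognised on the ribosome by the signal recognition particle, enters the ER through the SEC61 translocon, loses its signal peptide to signal peptidase and is folded by lectin chaperones and disulfide isomerases. COPII-coated vesicles carry the folded protein to the Golgi apparatus, with p24 proteins among the cargo receptors. COPI-coated vesicles bring escaped ER residents back, and KDEL receptors bind the C-terminal signal by which those residents are known. Cells that secrete much matrix, such as fibroblasts, are known for a large secretory apparatus, and collagen is a well known demanding cargo of COPII export.

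The group labels were checked first. All 6 epithelial markers measured, CD24 and CDH1 among them, were lower in the MSP groups, and 5 of 6 mesenchymal markers, COL1A2 among them, were higher, while VIM was not called. KRT14, ESRP1 and ZEB1 among these were named only because the authors' table lists them by call, so they do not bear on the check. The same holds for the probe sets used for CD24, FN1 and COL3A1, and CD24 was also the protein sorted on. The check thus rests on CDH1, EPCAM and KRT5, which were lower, on CDH2 and COL1A2, which were higher, and on VIM. Of the blood and endothelial markers PTPRC and CDH5 were dim and PECAM1 was not called. All arrays shared a 2% trimmed mean signal of 150, and their median signal ran from 15.5 to 20.2. The pair of CD24hi arrays differed more than any MSP pair: 26.2% of the 22220 probe sets with a mean signal of at least 32 differed by more than 2-fold between them, against 3.04%, 6.67% and 7.34% in MSP1, MSP2 and MSP3. The ratio of the 3' to the 5' ACTB control probe set was 1.47 on CD24hi array a, 1.10 on CD24hi array b and 1.13 to 1.25 on the MSP arrays.

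Averaged over the 3 MSP groups, 2 of the 39 genes were higher than in CD24hi (KDELR3 and SEC31A), 1 was lower (PDIA5) and 36 did not pass the test. The test was a two-sided limma fit of log2 signal over all 54613 probe sets with n = 2 arrays per group, and a gene was called where its adjusted p (Benjamini-Hochberg) was under 0.05. The called share of the 39 genes was 7.69%, beside 6.03% of all probe sets (3.35% higher and 2.68% lower) and 9.44% among named genes whose probe set, chosen like those of the members, has a mean signal of at least 32. The 9.44% leaves out probe sets under 32 units, and of the 34 members above that limit 31 were not called. The share of called genes in the secretory machinery therefore lay near the share over the array. These are measurements on bulk RNA, in which fewer cells of a type and less RNA per cell cannot be told apart.

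Most of this machinery was bright. Of the 39 genes 34 had a group level of at least 32 signal units, the level under which the spread between arrays grew wide, and 21 had a mean signal over 1000. The single-array signals of those 34 genes ran from 132 to 7084 units. The 5 others (COPA, PDIA3, SEC22A, SEC22B and SEC23IP) were dim in CD24hi and in the MSP groups on the probe sets named here, and no fold is given for them. Over the 34 bright genes the median log2 change was 0.14 and the median absolute log2 change 0.24, beside 0.10 and 0.39 over the 22220 probe sets of at least 32 units. Changes of more than 1 log2 unit were found in 3 of the 34 genes (8.82%), beside 15.5% of those probe sets.

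**Figure D1:**
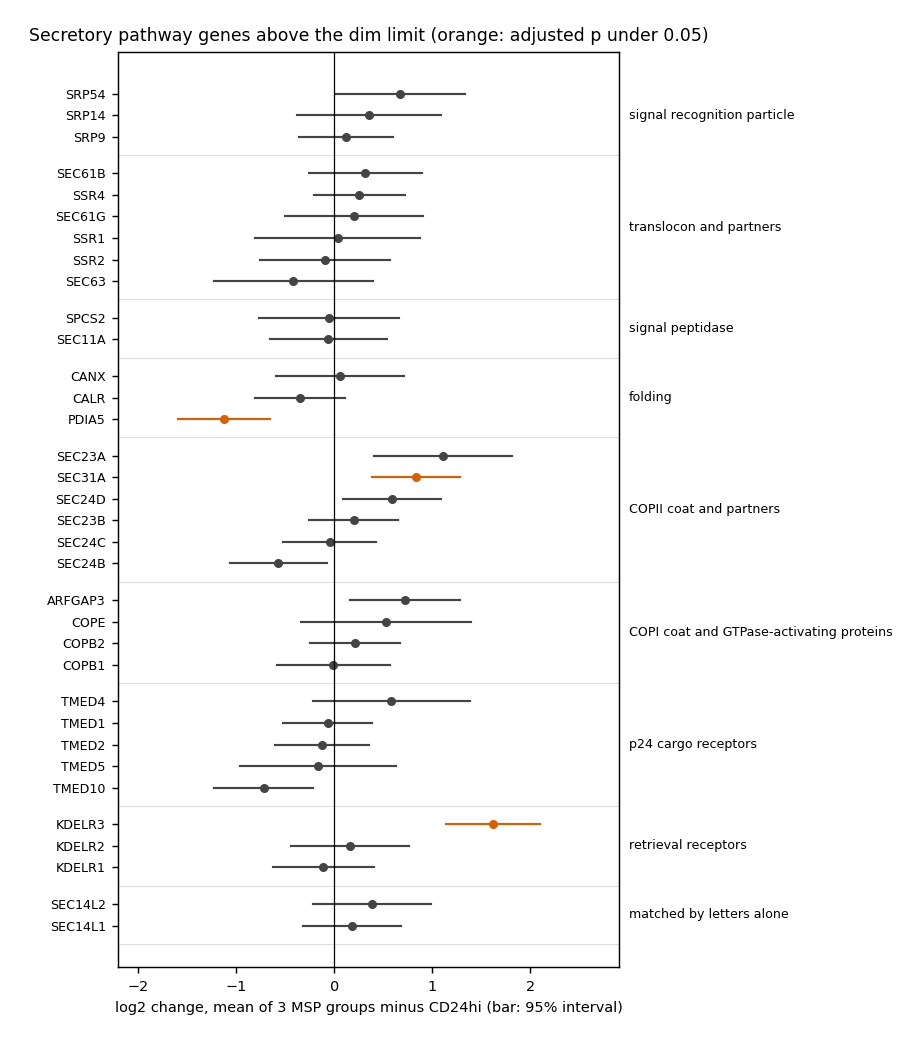
Log2 change (mean of the 3 MSP groups minus CD24hi) of the 34 genes above the dim limit, grouped by role, with the 95% interval of the limma fit as a bar. Orange marks KDELR3, SEC31A and PDIA5, the 3 genes with an adjusted p under 0.05.

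The clearest difference was in KDELR3, one of the receptors that return KDEL-bearing ER proteins from the Golgi apparatus. Its signal was 889 and 868 units on CD24hi arrays a and b, 2826 and 2463 in MSP1, 2777 and 2156 in MSP2, and 3437 and 2714 in MSP3. All 6 MSP arrays lay above both CD24hi arrays, and the CD24hi arrays were nearly equal. KDELR3 was 3.07-fold higher in the mean of the MSP groups (log2 change 1.62 ± 0.21 SE, adjusted p = 0.00212). Its log2 change was 1.59 in MSP1 (adjusted p = 0.0102), 1.48 in MSP2 (adjusted p = 0.0156) and 1.80 in MSP3 (adjusted p = 0.00546). These single calls ended with plain eBayes (0.0997, 0.126 and 0.0748) and with group weights (0.0682, 0.117 and 0.0525), and those of MSP1 and MSP2 also with signals floored at 32 units (0.0571 and 0.0702). A second KDELR3 probe set, dimmer at 417 units in CD24hi and 1377 in the MSP mean, gave a log2 change of 1.72 (adjusted p = 0.00491). That probe set was named only because the authors' table lists it by call, so it is not an independent check. In the mean comparison, when any single array was left out, the log2 change of the brighter probe set stayed between 1.56 and 1.68 with an adjusted p of at most 0.0125. With each group given its own variance, in which CD24hi weighs least, the adjusted p was 0.0503.

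The other KDEL receptors did not pass the test. KDELR1 gave 2824 and 1815 units in CD24hi, 1997 and 2257 in MSP1, 1872 and 2121 in MSP2, and 2154 and 2205 in MSP3, so that all 6 MSP arrays lay between the CD24hi arrays. The log2 change of KDELR1 was -0.11 ± 0.23 SE, with a 95% interval from -0.62 to 0.40. KDELR2 gave 2819 and 2039 units in CD24hi, 2545 and 3565 in MSP1, 2096 and 2746 in MSP2, and 2164 and 3251 in MSP3. Its arrays overlapped between groups, and its log2 change was 0.16 ± 0.26 SE with an interval from -0.44 to 0.76. The difference in response between the 3 receptors was not itself tested. Levels of different probe sets are not compared as amounts of RNA, because probe sets bind with unequal strength. The highest mean log2 signal over the 8 arrays was used only to choose which gene to describe where none of a role or list was called.

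**Figure D2:**
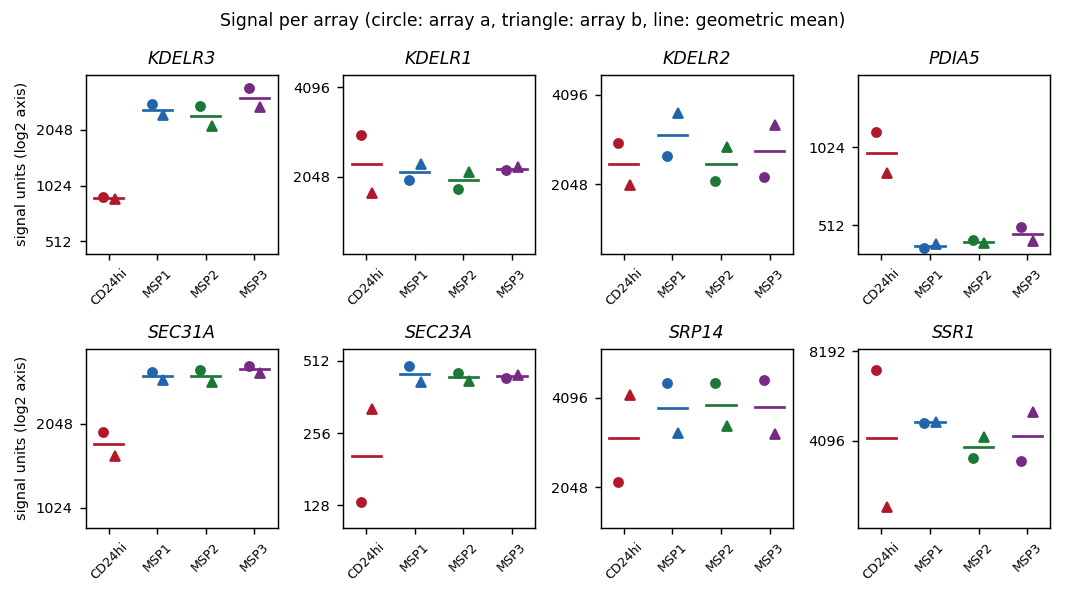
Signal of 8 genes on each array (log2 axis, signal units), with circles for array a, triangles for array b and a line for the geometric mean of each group. KDELR3 and SEC31A are higher and PDIA5 lower on all 6 MSP arrays, whereas the CD24hi arrays of SEC23A, SRP14 and SSR1 stand far apart.

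The protein disulfide isomerase family member PDIA5, which forms and rearranges disulfide bonds in the ER, was the 1 gene called lower. Its signal was 1169 and 815 units in CD24hi, 420 and 436 in MSP1, 448 and 436 in MSP2, and 505 and 447 in MSP3. Every MSP array lay below both CD24hi arrays. PDIA5 was 2.18-fold lower in the mean of the MSP groups (log2 change -1.12 ± 0.21 SE, adjusted p = 0.0133). In the single comparisons its log2 change was -1.19 in MSP1 (adjusted p = 0.0378), -1.14 in MSP2 (adjusted p = 0.0482) and -1.04 in MSP3 (adjusted p = 0.0662), so the last did not pass. The MSP2 call ended with the array letter as a replicate block (0.0522) and with only the completely named part of the array (0.052). The MSP1 and MSP2 calls both ended with plain eBayes (0.206 and 0.229), signals floored at 32 units (0.115 and 0.131) and group weights (0.112 and 0.17). Their log2 changes were -0.93 and -0.88 without CD24hi array a, and -1.45 and -1.40 without CD24hi array b. In the mean comparison the call ended without MSP1 array a (0.0547), with plain eBayes (0.112), with signals floored at 32 units (0.0622) and with group weights (0.117).

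Other folding genes did not pass the test. CALR, the soluble lectin chaperone calreticulin, gave 501 and 551 units in CD24hi and 356 to 483 on the MSP arrays. All 6 MSP arrays were below both CD24hi arrays, but the log2 change was -0.35 ± 0.20 SE with an adjusted p of 0.417. CANX, its membrane-bound relative calnexin, gave 5894 and 3094 units in CD24hi and 3459 to 5219 on the MSP arrays, all of them between the CD24hi arrays. Its log2 change was 0.06 ± 0.29 SE, with an interval from -0.60 to 0.71. PDIA3 was dim on its named probe set.

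In the COPII coat, 1 of 7 genes was called. SEC31A, a subunit of the outer cage of the coat, gave 1924 and 1571 units in CD24hi, 3141 and 2942 in MSP1, 3192 and 2895 in MSP2, and 3305 and 3119 in MSP3. The MSP arrays were all above both CD24hi arrays, and array a exceeded array b in each group. The level was 1.78-fold higher in the mean of the MSP groups (log2 change 0.83 ± 0.20 SE, adjusted p = 0.0425). No single comparison of SEC31A passed, with log2 changes of 0.81, 0.81 and 0.88 and adjusted p of 0.137, 0.143 and 0.0988 in MSP1, MSP2 and MSP3. All 3 passed when only 1 probe set per named gene was tested (0.0401, 0.0421 and 0.0272). That set holds 805 genes named only through the authors' calls. With only the completely named part of the array no single comparison of SEC31A passed (0.142, 0.154 and 0.102). With the mean of all SEC31A probe sets, dim ones included, the log2 changes were 1.36, 1.58 and 1.57 and passed as well, and MSP3 passed with dim probe sets left out (0.0412). A second SEC31A probe set at 620 units in CD24hi and 1197 in the MSP mean gave 0.95 ± 0.19 SE (adjusted p = 0.0178). This probe set and a dim one were named only because the authors' table lists them by call. Neither this probe set nor the mean of all SEC31A probe sets is therefore an independent check. The call of the brighter probe set rested on most of the arrays together: leaving out 1 array ended it in 7 of 8 fits, with adjusted p from 0.0864 to 0.139, and it was kept without CD24hi array a (0.0286).

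SEC23A, which together with SEC24 proteins forms the inner layer of the coat and stimulates the GTPase SAR1, gave 132 and 322 units in CD24hi, 486 and 417 in MSP1, 455 and 424 in MSP2, and 435 and 448 in MSP3. The MSP arrays were close to each other and above both CD24hi arrays, while the CD24hi arrays differed by more than 2-fold. The log2 change of 1.11 ± 0.31 SE did not pass (adjusted p = 0.0786). Without CD24hi array b it was 1.75 and without CD24hi array a it was 0.46. Such a fit keeps 1 CD24hi array and takes its spread from the MSP pairs alone. Its close relative SEC23B gave 803 and 877 units in CD24hi and 662 to 1190 on the MSP arrays, with a log2 change of 0.20 ± 0.20 SE.

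The SEC24 proteins bind the cargo of COPII vesicles, and each paralogue had its own pattern of values, none of which passed. SEC24D gave 451.6 and 350.7 units in CD24hi, 691 and 684 in MSP1, 548 and 533 in MSP2, and 473 and 701 in MSP3, all 6 MSP values above both CD24hi values. The change on the log2 scale was 0.59 ± 0.22 SE (adjusted p = 0.188). SEC24B gave 1797 and 1212 units in CD24hi, 973 and 997 in MSP1, 1035 and 917 in MSP2, and 937 and 1122 in MSP3, all 6 below both CD24hi values. For SEC24B the log2 change was -0.57 ± 0.22 SE (adjusted p = 0.197). SEC24C stayed between 424 and 569 units on all arrays, with a log2 change of -0.05 ± 0.21 SE. Whether the paralogues differ from each other in their change was not tested.

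In the COPI coat and its GTPase regulators none of 5 genes was called. ARFGAP3, which stimulates GTP hydrolysis by the coat's GTPase ARF1, gave 518 and 823 units in CD24hi, 1298 and 963 in MSP1, 1116 and 923 in MSP2, and 1214 and 987 in MSP3. The MSP arrays were all above both CD24hi arrays, and the log2 change was 0.72 ± 0.25 SE (adjusted p = 0.148). COPB1, the coat subunit chosen by its mean signal, gave 5551 and 3157 units in CD24hi and 3871 to 4486 on the MSP arrays, all of them between the CD24hi values. Its log2 change was -0.01 ± 0.26 SE, with an interval from -0.59 to 0.57. COPB2 gave 0.21 ± 0.20 SE. COPE, at 406 and 1145 units in CD24hi and 798 to 1219 on the MSP arrays, gave 0.53 ± 0.38 SE, and COPA was dim.

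Among the p24 cargo receptors none of 5 was called. TMED10 gave 4810 and 3273 units in CD24hi, 2302 and 2450 in MSP1, 2163 and 2607 in MSP2, and 2385 and 2590 in MSP3. The CD24hi arrays were both above all 6 MSP arrays, and the log2 change was -0.72 ± 0.22 SE (adjusted p = 0.111). TMED2, which forms complexes with TMED10 and was chosen by its mean signal, gave 4636 and 4202 units in CD24hi and 3312 to 4617 on the MSP arrays. That gave TMED2 a log2 change of -0.13 ± 0.21 SE, with an interval from -0.61 to 0.35. TMED4 gave 532 and 205 units in CD24hi and 392 to 671 on the MSP arrays. Its log2 change of 0.58 ± 0.35 SE did not pass, and it became 1.27 without CD24hi array a and -0.10 without CD24hi array b. TMED1 and TMED5 gave log2 changes of -0.07 ± 0.20 SE and -0.16 ± 0.35 SE.

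The steps of ER entry held no called gene. In the signal recognition particle, SRP9, which with SRP14 binds the Alu domain of the particle's RNA, was chosen by its mean signal and gave 4639 and 4836 units in CD24hi and 4723 to 5990 on the MSP arrays (log2 change 0.12 ± 0.21 SE, interval from -0.36 to 0.59). SRP14 gave 2138 and 4195 units in CD24hi, and on each MSP pair array a was higher, at 4597 against 3116, 4587 against 3293 and 4698 against 3085. Its CD24hi arrays thus ran the other way from its MSP arrays, and its log2 change was 0.35 ± 0.32 SE. SRP54, the subunit that binds the signal peptide, gave 347 and 776 units in CD24hi and 720 to 933 on the MSP arrays. Its log2 change was 0.67 ± 0.29 SE (adjusted p = 0.258), but 1.25 without CD24hi array b and 0.10 without CD24hi array a.

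Of the translocon and its partners all 6 were bright and uncalled. SSR1, a subunit of the translocon-associated protein complex, gave 7084 and 2455 units in CD24hi, 4684 and 4745 in MSP1, 3594 and 4217 in MSP2, and 3512 and 5116 in MSP3. Every MSP value lay between the CD24hi values, and the log2 change was 0.03 ± 0.37 SE with an interval from -0.80 to 0.87. SEC61B and SEC61G, the small subunits of the channel, gave 0.32 ± 0.26 SE and 0.20 ± 0.31 SE. SEC63, which recruits the chaperone BiP to the channel, gave 3012 and 1164 units in CD24hi and 1131 to 1717 on the MSP arrays, a log2 change of -0.42 ± 0.36 SE. SSR2 and SSR4 gave -0.09 ± 0.29 SE and 0.26 ± 0.20 SE. Of the signal peptidase complex, the catalytic subunit SEC11A gave 6369 and 3567 units in CD24hi and 4197 to 5465 on the MSP arrays, and the accessory subunit SPCS2 gave 5978 and 2453 and 3311 to 4051. Both had their MSP arrays between the CD24hi arrays and log2 changes of -0.06 ± 0.27 SE and -0.05 ± 0.32 SE.

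SEC14L1 and SEC14L2, the genes matched by letters alone, were not called either, with log2 changes of 0.18 ± 0.22 SE and 0.38 ± 0.27 SE. A second SEC14L1 probe set gave 0.58 ± 0.20 SE (adjusted p = 0.155) and another -0.17 ± 0.22 SE, so its probe sets differed in sign without passing the test.

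For 21 of the 34 bright genes the 95% interval of the change, not adjusted for multiple tests, stayed within 2-fold in either direction. It excluded 0 for 9 genes: SEC31A, SEC23A, SEC24D, SEC24B, ARFGAP3, SRP54, TMED10, KDELR3 and PDIA5. These intervals rest on a spread shared by the 4 groups. In 22 of the 34 genes the CD24hi arrays differed more than any MSP pair, and there the interval does not carry the full CD24hi spread. The other 12, KDELR3 and SRP9 among them, had at least 1 MSP pair that differed more than the CD24hi pair. In 26 of the 34 genes the change stayed within 2-fold whichever array was left out. The exceptions were ARFGAP3, COPE, KDELR3, PDIA5, SEC23A, SEC63, SRP54 and TMED4.

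By order of arrays alone, 5 of the 39 genes had all 6 MSP arrays above both CD24hi arrays (KDELR3, SEC31A, SEC23A, SEC24D and ARFGAP3), beside 18.8% of the probe sets of at least 32 units and 11.2% of all probe sets. The opposite order was found in 4 genes (PDIA5, CALR, SEC24B and TMED10), beside 12.4% and 9.92%. All genes in both counts were among the 34 bright genes, to be set beside the shares at 32 units or more. Both counts lie near those shares. COPII genes made up 3 of the 5 and 1 of the 4.

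Comparisons of the single MSP groups with CD24hi share the CD24hi arrays and are not independent of each other. In MSP1 KDELR3 and PDIA5 were called, beside 3.62% of all probe sets. The same 2 genes were called in MSP2, beside 3.28%, and KDELR3 alone in MSP3, beside 3.66%. Fits that left out either array of MSP1 called 0 genes in MSP1, the same held for MSP2, and without MSP3 array a 0 genes were called in MSP3. In the authors' deposited table, KDELR3, PDIA5 and SEC31A reached a p-value of 0.05 or less in each of the 3 comparisons. Whether the p-values of the authors' deposited table are adjusted is not stated. The authors' deposited table gave log2 fold changes of 1.72, 1.66 and 1.98 for KDELR3 in MSP1, MSP2 and MSP3. It gave -1.23, -1.21 and -1.14 for PDIA5 and 0.85, 0.82 and 0.86 for SEC31A. For SEC23A the authors' deposited table gave 0.86, 0.78 and 0.91 with p-values of 0.316, 0.389 and 0.278.

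Between the MSP groups 0 of 39 genes were called in any of the 3 pairs by limma, beside 0.0% of all probe sets, and 0 of 39 had an unadjusted p under 0.05. Over the array 2066, 1646 and 1812 probe sets had an unadjusted p under 0.05 in MSP1 against MSP2, MSP1 against MSP3 and MSP2 against MSP3. The KDELR3 levels were 2639 units in MSP1, 2447 in MSP2 and 3054 in MSP3, and those of SEC31A were 3040, 3040 and 3211. PDIA5 levels were 428, 442 and 475 units. None of the differences between neighbours in these orders passed the test. SEC23B, at 1086 units in MSP1, 755 in MSP2 and 1092 in MSP3, gave a log2 difference of 0.52 ± 0.25 SE between MSP1 and MSP2 and -0.53 between MSP2 and MSP3, which did not pass the test.

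The gap between the CD24hi arrays was large in these genes too. The median absolute log2 difference between arrays a and b over the 34 bright genes was 0.56 in CD24hi, against 0.20, 0.22 and 0.26 in MSP1, MSP2 and MSP3. More than 2-fold separated the CD24hi arrays in 10 genes. TMED4, TMED5, SPCS2, SEC63, SSR1 and SSR2 were higher on CD24hi array a, and COPE, SEC23A, SRP54 and SEC61G were higher on CD24hi array b. In the MSP groups 0 of the 34 genes differed by that much within a pair. For 9 genes (COPB1, CANX, TMED5, KDELR1, SEC11A, SPCS2, SEC61G, SSR1 and SSR2) all 6 MSP arrays lay between the CD24hi arrays, beside 13.7% of probe sets of at least 32 units. The part of this gap in the results above was not tested, and KDELR3 is the called gene whose change was as large with either CD24hi array alone (1.64 without array a and 1.60 without array b).

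Within the MSP groups, arrays a and b differed in a repeated way. Array a was higher in all 3 MSP pairs for 13 of the 34 genes (ARFGAP3, COPB2, COPE, KDELR3, SEC11A, SEC14L1, SEC14L2, SEC31A, SEC61B, SEC61G, SRP14, SRP9 and SSR4), beside 31.5% of probe sets of at least 32 units. Array b was higher in all 3 pairs for another 13 (CALR, CANX, COPB1, KDELR1, KDELR2, SEC23B, SEC24C, SEC63, SSR1, SSR2, TMED10, TMED2 and TMED5), beside 30.8%. The CD24hi arrays more often had the opposite order: 8 of the first 13 genes were lower on CD24hi array a, and 10 of the second 13 were higher on it. Over all 22220 probe sets of at least 32 units, same-letter deviations of CD24hi and the MSP groups also ran oppositely (correlations of -0.402 to -0.285). The opposite order is therefore not particular to these genes. What the letters a and b stand for is not given in the labels, and the part of this pattern in the results was not tested.

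**Figure D3:**
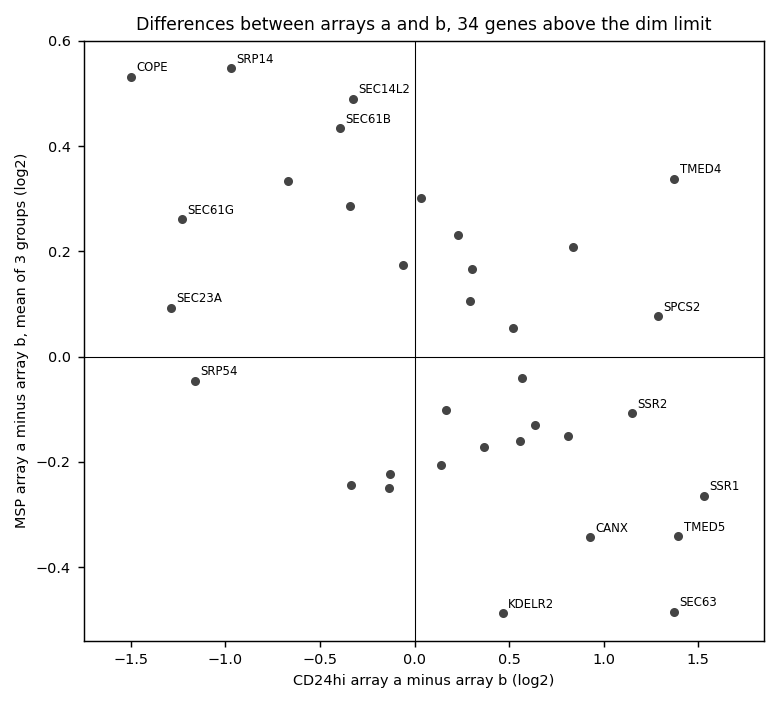
Log2 difference between arrays a and b of the 34 genes above the dim limit, in CD24hi (horizontal axis) and as the mean of the 3 MSP groups (vertical axis). Points in the upper left and lower right, such as SRP14 and SEC63, had opposite signs in CD24hi and in the MSP groups, and the horizontal spread is wider than the vertical.

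Other genes of the same route were taken from lists. Of 46 measured genes on lists of ER entry, ER chaperones, ER export, Golgi traffic and unfolded protein response factors, 3 were higher, 0 were lower and 43 were not called (5 were dim in all groups), with a median log2 change of 0.16. Over all probe sets 3.35% were called higher and 2.68% lower. CREB3L1 and YIPF5, 2 of the 3 genes called here, owe their names here to the authors' own calls. Their calls therefore do not bear on the share, and TRAM2 is the 1 called gene named without them. Of the 6 genes of ER entry and the oligosaccharyltransferase, 1 was called: TRAM2, a homologue of a translocon partner known for its part in type I collagen synthesis. TRAM2 gave 971 and 435 units in CD24hi, 2984 and 3126 in MSP1, 3096 and 3760 in MSP2, and 3499 and 3315 in MSP3. All MSP arrays were far above both CD24hi arrays, a 5.06-fold difference (log2 change 2.34 ± 0.30 SE, adjusted p = 0.00176). Without CD24hi array a it was 2.92 and without CD24hi array b 1.76, and with signals floored at 32 units the adjusted p was 0.0676.

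CREB3L1, an ER-anchored transcription factor that is cut in the Golgi apparatus and is known in bone for its part in collagen secretion, was 1 of the 5 unfolded protein response factors and the called one. It gave 24.3 and 41.2 units in CD24hi, 203 and 161 in MSP1, 476 and 406 in MSP2, and 280 and 160 in MSP3. The CD24hi level was just under the dim limit, so the MSP mean was at least 8.01-fold higher (adjusted p = 0.000476). CREB3L1 and YIPF5 were named only through the authors' calls, so neither call is independent of those. YIPF5, a membrane protein of the early Golgi, gave 775 and 715 units in CD24hi and 1182 to 1572 on the MSP arrays (log2 change 0.90 ± 0.19 SE, adjusted p = 0.0234), the 1 call among 14 ER export genes. Leaving out any 1 of the 6 MSP arrays ended that call, with adjusted p from 0.0597 to 0.0929.

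None of the 6 ER chaperones was called, at a median log2 change of -0.41. P4HB, the disulfide isomerase subunit of prolyl hydroxylase, chosen by its mean signal over the 8 arrays, gave a log2 change of -0.01 ± 0.24 SE. None of the 15 Golgi genes was called, and the GTPase ARF4, chosen likewise, gave 0.16 ± 0.21 SE. XBP1, ATF4, ATF6 and ATF6B, the regulators of the ER stress response on the list, gave log2 changes of -0.17, -0.13, 0.54 and 0.03 and were not called.

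**Figure D4:**
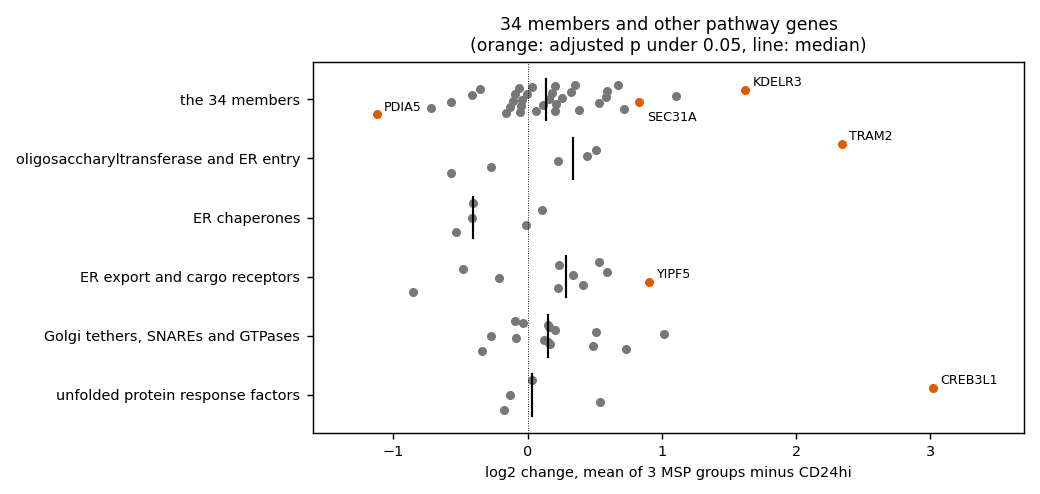
Log2 change (mean of the 3 MSP groups minus CD24hi) of the 34 genes above the dim limit and of other secretory pathway genes by list, with a line at each median. Orange points, named beside them, had an adjusted p under 0.05, and all other points did not pass. The change of CREB3L1 is measured from a level just under the dim limit. CREB3L1 and YIPF5 were named only through the authors' calls.

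The promoters of these genes were read for known ER stress sequences, because the ER stress response is a textbook regulator of chaperones and coat subunits. Sequences are those of RefSeq on GRCh38.p14, from 250 bases before to 50 bases after each annotated start, and 35 of the 39 genes matched (KDELR2, PDIA3, SEC24D and TMED4 did not). The motif TGACGTG, the core of the unfolded protein response element, was sought on both strands and found in 7 of 35 genes (COPA, COPB1, COPB2, COPE, KDELR3, SEC23A and SSR4). That is 20.0% of them, beside 2.4% of the 27305 genes with a promoter in the table. Both shares count matches on either side of the start. In COPA, COPE and SEC23A no match ended before the annotated start, whereas COPB1, COPB2, KDELR3 and SSR4 had a match wholly before it. The ER stress element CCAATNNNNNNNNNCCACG was found in CALR and CANX (5.71%), beside 0.0916% of all genes. A second form, ATTGGNCCACG, was in 0 of the 35 and in 0.0696% of all genes. The motifs do not contain one another. A match describes the letters and is not a measured binding site. Of the genes with TGACGTG, KDELR3 was called higher. SEC23A, COPE, SSR4, COPB2 and COPB1 gave log2 changes of 1.11, 0.53, 0.26, 0.21 and -0.01 and did not pass, and COPA was dim. Whether these changes differ from that of KDELR3 was not tested.

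Shown here are the stretches around the match in KDELR3 and in COPB1, which share the motif, and in CALR and CANX, which carry the longer element. The capitals mark the motif, which in KDELR3, COPB1 and CALR reads on the opposite strand. The stretch for KDELR3 is chr22:38468011-38468095 (plus strand), for COPB1 chr11:14499812-14499898 (minus strand), for CALR chr19:12938359-12938442 (plus strand) and for CANX chr5:179698738-179698836 (plus strand). The motif begins 45 bases before the start site in KDELR3, 47 in COPB1, 225 in CALR, and 151 or 189 in CANX, which has more than 1 annotated start.
KDELR3: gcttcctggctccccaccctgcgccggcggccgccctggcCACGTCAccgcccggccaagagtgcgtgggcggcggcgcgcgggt
COPB1: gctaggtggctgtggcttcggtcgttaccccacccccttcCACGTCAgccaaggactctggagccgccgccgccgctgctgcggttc
CALR: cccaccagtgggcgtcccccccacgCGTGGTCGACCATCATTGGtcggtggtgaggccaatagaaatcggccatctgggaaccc
CANX: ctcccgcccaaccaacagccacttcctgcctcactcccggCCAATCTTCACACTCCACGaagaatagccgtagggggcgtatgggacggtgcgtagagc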

How the data were processed

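Biotin-labelled RNA of HMLE cells was hybridised to Affymetrix arrays of 1 colour, per the labels' protocols. The deposited values are a linear intensity per probe set and array, scaled by the authors to a 2% trimmed mean of 150. The submitters' processing notes name Affymetrix Expression Console and limma; the algorithm is not given in the sources used here. A second deposited table holds, per the file headers, a p-value and log2 fold change for each of the authors' comparisons, with a mean log2 level. Gene names came from this table alone, whose head was 2256 probe sets at a p-value of at most 0.05 throughout, followed by the others in array order as far as position 14644. All 39 members had their probe set in that completely named stretch.

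Intensity was log2 transformed with no offset and modelled in limma 3.58.1 (R 4.3.3) as 1 mean per group over 8 arrays (4 residual degrees of freedom) and eBayes with a prior variance that follows the signal. The 62 control probe sets were left out, and p-values were Benjamini-Hochberg adjusted over 54613 probe sets per contrast. Levels are geometric means of 2 arrays. Levels under 32 units were called dim, because the residual SD was 0.31 log2 units above 512 units and 1.14 under 8. Where only the lower level was dim, the fold is taken over 32 and written "at least". The number of arrays limits the precision. The members, lists and tests were chosen with earlier results of these data known. Statistics in full were given to called members, to the widest called genes of each role or else the one with the highest mean log2 signal over the 8 arrays, and likewise for each other list. Further members were named with their levels. Alternatives were the prior, the features tested, the dim limit, the scaling, the probe sets of a gene, the array letter as a block, group weights and each array left out.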

Additional observations from a re-analysis of the deposited data

How the results depend on the processing

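KDELR3 was called in the mean comparison under 8 of the 10 other settings (the prior, features tested, dim limit, scaling, probe sets and block as labelled). It was also called with the CD24hi letters crossed, but not with group weights. In the fits without 1 array its log2 change stayed between 1.56 and 1.68. With plain eBayes 1 member was higher and 0 were lower in the mean comparison, and 0 were called in MSP1, MSP2 and MSP3 alike. With a floor of 32 units 0 members were lower, and 0 were called in MSP1 and in MSP2. With 1 probe set per named gene, or with the mean of a gene's probe sets, 2 were lower (PDIA5 and TMED10) and 3 were called in MSP3 (SEC31A among them, also called in MSP1 and MSP2). SEC23A was then called too, at adjusted p of 0.0405 and 0.0422. Both of these settings include 805 genes named only through the authors' calls. With only the completely named part 1 was called in MSP2 (PDIA5 lost), and with dim probe sets left out 2 were called in MSP3. With group weights, chosen after seeing the data (0.323 for CD24hi and 1.21 to 1.93 for the MSP groups), 0 members were higher, 0 lower, and 0 called in MSP1, MSP2 or MSP3. PDIA5 had an adjusted p of 0.112 with plain eBayes, 0.0622 with the floor and 0.117 with group weights, SEC31A 0.189 with plain eBayes and 0.33 with group weights, and TRAM2 0.0676 with the floor. Leaving out 1 array changed the number of called members and also the number of probe sets called over the whole array. The member counts of those fits are therefore not read as a result about the members. Without CD24hi array b the log2 changes were 1.05 for ARFGAP3, 1.75 for SEC23A, 1.25 for SRP54, -0.85 for SEC24B and -0.996 for TMED10. Between the MSP groups 0 members were called under every alternative, also with the MSP arrays alone. Over all probe sets the mean comparison called 3295, but 1731 with plain eBayes, 1332 with the floor and 851 with group weights. It called 1640 of 8926 with 1 probe set per named gene, 1511 with the mean of probe sets, and 703 of 14644 in the completely named part. The causes of these shifts were not tested.

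Same-letter arrays deviated together within the MSP groups (correlations of 0.60 to 0.76 over bright probe sets) and oppositely between CD24hi and MSP (-0.40 to -0.29). The labels do not say what arrays of the same letter share, and the cause of these signs was not tested. With the replicate block 2 members were higher and 1 lower, as without it, and MSP2 had 1 called member, PDIA5 being lost. With the replicate block and the CD24hi letters crossed, chosen after seeing the data, 4 members were higher (ARFGAP3, KDELR3, SEC23A and SEC31A), 2 lower (PDIA5 and TMED10), and 4, 3 and 4 called in MSP1, MSP2 and MSP3, with 5898 probe sets called in the mean comparison. With the replicate block and the MSP arrays alone, chosen after seeing the data, 473, 129 and 221 probe sets were called in the 3 pairs, against 0, 0 and 1 without it, and 0 members.

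Of 388 values of 39 named genes under the other alternatives, 368 kept direction and call, 9 lost a call, 7 gained one and 4 changed sign. Those were uncalled values near 0: COPB1 became 0.085 with quantile normalization, KDELR1 0.014 with the mean of probe sets, and P4HB 0.029 and 0.12 with these. Leaving out 1 array turned the sign of 17 uncalled genes, whose ranges were -0.41 to 0.52 (CANX), -0.41 to 0.40 (COPB1), -0.22 to 1.28 (COPE), -0.43 to 0.21 (KDELR1), -0.075 to 0.39 (KDELR2), -0.33 to 0.31 (P4HB), -0.48 to 0.36 (SEC11A), -0.21 to 0.12 (SEC24C), -0.41 to 0.82 (SEC61G), -1.10 to 0.27 (SEC63), -0.70 to 0.59 (SPCS2), -0.13 to 0.84 (SRP14), -0.73 to 0.80 (SSR1), -0.67 to 0.48 (SSR2), -0.15 to 0.018 (TMED1), -0.10 to 1.27 (TMED4) and -0.86 to 0.54 (TMED5).

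With 2 arrays per group, a gene not called is not shown to be equal between groups. A group left with 1 array was assumed to vary like the others.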
